A study of Mus musculus with 12 samples.

Results

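The genes examined are the replication-dependent core histone genes and the linker histone genes of the mouse. They were taken as the rows of the count table whose symbol starts with Hist1h, Hist2h, Hist3h, Hist4h or H1f, or with the newer prefixes H2ac, H2bc, H3c and H4c, and that held at least 10 counts summed over all libraries. This gave 61 of 55573 genes. The symbols alone matched 74 genes, and the other 13 held 8 counts or fewer. Hist1h2aj with 14 counts and H1foo with 15 counts lay just inside the minimum, and Hist2h2ab with 8 counts and Hist1h1t with 7 counts lay just outside it. By class, 8 members are linker histone H1 genes, 16 H2A, 14 H2B, 11 H3 and 12 H4 genes, and among the H2A genes Hist1h2al and Hist1h2aj are annotated as pseudogenes. By symbol, 49 members belong to Hist1 on chromosome 13, 7 to Hist2 on chromosome 3, 1 to Hist3 on chromosome 11 and 1 to Hist4 on chromosome 6, while H1f0, H1fx and H1foo carry no cluster symbol.

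RNA was sequenced from tumourspheres, floating spheres grown from dissociated cells, of the spindle-shaped mammary tumour cell lines A1005, A1129 and A1471. Every line carried the genotype MMTV-Metmt;Trp53fl/+;Cre, in which the mouse mammary tumour virus promoter drives a mutant Met receptor and Cre acts on 1 floxed allele of Trp53, so the DMSO controls carried these alleles too. Each line was treated for 24 h with the vehicle DMSO, the Met kinase inhibitor Crizotinib, the FGF receptor kinase inhibitor PD173074 or both inhibitors together, which gave 12 libraries with 1 library of each line per treatment (n = 3 lines). The lines came from independent tumours and were grown in serum-free medium with insulin, EGF and bFGF, and each is a single culture, so a difference between lines cannot be told apart from a difference between tumours or cultures.

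The libraries held 13031492 to 17750476 counts, of which the 61 members held 0.0248% to 0.101%. The mesenchymal markers Vim, Zeb1, Twist1, Fgfr1 and Met were present in every library, while the epithelial markers Cdh1 and Epcam, the endothelial marker Pecam1 and the mesenchymal marker Cdh2 stayed at 2.08 CPM (counts set to a common library size) or less. The keratin Krt8 was at 1.12 to 34 CPM, highest in A1005, and Krt18 at 4.0 to 49.4 CPM, highest in A1129. The leukocyte marker Ptprc was at 13.6 to 20.5 CPM in the A1005 libraries and at 0.141 CPM or less in the other lines, and its part in the A1005 values below was not tested. In bulk RNA, fewer cells in S phase and less histone mRNA per cell cannot be told apart.

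Core histones form the octamer around which DNA is wrapped, and linker histone H1 binds where DNA enters and leaves it. The replication-dependent genes are transcribed in S phase from tandem and divergent gene clusters, and their mRNAs carry no introns and end in a conserved stem-loop instead of a poly(A) tail. The stem-loop binding protein Slbp and the U7 snRNP direct the cut behind the stem-loop, and the mRNA is degraded when DNA synthesis stops. Some cluster genes also give longer, polyadenylated transcripts from a site behind the stem-loop, mostly in differentiated or resting cells, and H1f0, which encodes the linker histone H1.0 typical of differentiated cells, is polyadenylated throughout.

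The stem-loop is shown for 6 members whose annotated transcripts run on for different lengths behind it. Each run is 30 bases of the GENCODE M21 transcript (build GRCm38, which is mm10), 5′ to 3′ on the strand of the gene, with the stem-loop in capitals and 7 bases either side.
Hist1h1c: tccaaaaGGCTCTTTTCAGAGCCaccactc
Hist1h1d: ctcaaacGGCTCTTTTCAGAGCCacccaca
Hist1h2ac: acccaaaGGCTCTTTTCAGAGCCcccactt
Hist3h2a: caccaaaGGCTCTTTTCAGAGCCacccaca
Hist1h3c: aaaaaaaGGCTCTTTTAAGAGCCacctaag
Hist2h2aa2: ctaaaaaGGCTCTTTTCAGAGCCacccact
The capital letters, with any base before the final AGAGCC, were found in annotated transcripts of 28 members and in those of 35 of 21901 protein-coding genes (0.16%). No match says only that these letters are not in the annotated transcript, and many annotated members stop at the end of the coding sequence. No H4 gene held a match, although Hist2h4 is annotated with 1630 exon bases and Hist1h4d with 1138. Variants of the letters were not searched, and the 33 members without a match are in neither length group below. The annotation ended 35 bases behind the stem-loop in Hist2h2aa2 and 74 bases behind it in Hist1h3c. It ran on for 840 bases in Hist1h1c, 1643 bases in Hist3h2a, 2010 bases in Hist1h2ac and 4884 bases in Hist1h1d. The 13 members with at least 100 annotated bases behind the stem-loop had a median of 282 counts over the 12 libraries, and 11 of them passed the filter on low counts used for testing. The 15 members with a shorter stretch had a median of 27 counts, and none of them passed. These shorter members shared a median of 59.4% of their 50-base words with other genes, against 31.5% for the 13, and how reads that match several genes were counted is not given in the sources used here, so the part of shared reads in these levels was not tested. Per kilobase of annotated exon, the medians of the mean level were 0.671 CPM per kb and 0.303 CPM per kb. This scaling takes reads to cover the whole annotated length, which was not tested. Whether the libraries were made from poly(A) RNA is not given in the sources used here, so the level of a transcript that ends at its stem-loop may not be comparable with that of a polyadenylated one.

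Promoters are shown for members that changed with both inhibitors in the fit with the cell line as block described below, among them the linker gene H1fx, from RefSeq (GRCm38.p6), from 250 bases before to 50 bases after the start, 5′ to 3′ on the strand of the gene. Capitals mark the motifs searched on both strands, the TATA box TATAAA, the CCAAT box CCAAT and the octamer ATTTGCAT, none of which overlapped another in these windows.
Hist1h1c, chr13:23738557-23738856, plus strand: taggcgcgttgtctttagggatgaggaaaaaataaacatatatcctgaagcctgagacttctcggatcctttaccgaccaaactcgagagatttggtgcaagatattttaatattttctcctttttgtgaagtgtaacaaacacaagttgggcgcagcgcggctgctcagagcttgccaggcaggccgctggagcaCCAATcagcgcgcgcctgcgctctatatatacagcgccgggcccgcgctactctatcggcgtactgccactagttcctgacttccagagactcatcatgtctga
Hist1h2ac, chr13:23683910-23684209, minus strand: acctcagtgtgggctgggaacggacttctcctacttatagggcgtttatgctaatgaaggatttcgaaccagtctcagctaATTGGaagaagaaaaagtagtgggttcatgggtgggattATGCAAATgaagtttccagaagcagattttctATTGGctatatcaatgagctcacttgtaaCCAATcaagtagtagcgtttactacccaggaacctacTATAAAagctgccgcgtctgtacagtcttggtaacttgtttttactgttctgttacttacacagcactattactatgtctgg
Hist3h2a, chr11:58954435-58954734, plus strand: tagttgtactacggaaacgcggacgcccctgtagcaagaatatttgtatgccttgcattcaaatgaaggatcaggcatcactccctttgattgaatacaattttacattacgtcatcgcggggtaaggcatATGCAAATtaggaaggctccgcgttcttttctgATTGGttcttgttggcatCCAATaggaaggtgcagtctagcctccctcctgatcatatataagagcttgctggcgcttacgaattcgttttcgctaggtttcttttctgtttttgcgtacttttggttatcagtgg
Hist1h2ak, chr13:21753863-21754162, minus strand: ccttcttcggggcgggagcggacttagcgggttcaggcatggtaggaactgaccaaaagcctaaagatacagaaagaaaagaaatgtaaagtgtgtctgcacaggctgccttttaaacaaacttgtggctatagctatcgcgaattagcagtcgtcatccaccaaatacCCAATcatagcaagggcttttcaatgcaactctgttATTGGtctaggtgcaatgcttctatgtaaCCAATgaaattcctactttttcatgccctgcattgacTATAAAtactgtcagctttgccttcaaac
H1fx, chr6:87981433-87981732, minus strand: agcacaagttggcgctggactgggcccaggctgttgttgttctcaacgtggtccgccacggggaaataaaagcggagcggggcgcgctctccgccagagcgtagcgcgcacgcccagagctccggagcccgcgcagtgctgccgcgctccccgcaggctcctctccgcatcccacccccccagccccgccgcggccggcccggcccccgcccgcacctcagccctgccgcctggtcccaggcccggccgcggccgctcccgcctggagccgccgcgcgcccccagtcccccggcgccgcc
The table held a promoter for 54 members. TATAAA was in 29 of the 54 against 13.6% of all 32851 promoters, CCAAT in 44 of the 54 against 37.4%, and the octamer in 12 of the 54 against 1.74%. All 12 members with the octamer encode H2A or H2B, and the windows of the 8 linker genes, the 9 H3 genes and the 11 H4 genes held none. CCAAT was in the window of 14 of 14 H2A genes and 12 of 12 H2B genes but in 3 of 11 H4 genes. These windows are not independent, because 10 pairs of an H2A and an H2B gene start head to head with 175 to 301 bases between their 5′ ends. The Hist1h2ac window above is at the same time the sequence between Hist1h2ac and Hist1h2bc, which are 250 bases apart, and the Hist1h2ak window faces Hist1h2bn across 295 bases.

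The members differed in level by several orders of magnitude. H1f0 (chr15:79028450-79030504, plus strand) held 67293 counts, 67.5% of the counts of all members, and the linker gene Hist1h1c (chr13:23738808-23740367, plus strand), which encodes H1.2, held 17054 counts, 17.1% of them. Per kilobase of exon the order of the mean level over the 12 libraries was H1f0 at 182 CPM per kb, Hist1h1c at 59.1, the H2B gene Hist1h2bc at 22.7, the linker gene H1fx at 13.7, the H4 gene Hist1h4i at 9.67, the H2A genes Hist1h2ak at 7.88 and Hist1h2al at 6.10, the H4 gene Hist1h4h at 2.72, the H2B gene Hist1h2bg at 2.69 and the H4 gene Hist1h4k at 1.77 CPM per kb. The 61 members had a median of 0.575 CPM per kb. As a class, linker genes held 88.6% of the members' counts, H2B genes 6.32%, H2A genes 2.17%, H4 genes 2.17% and H3 genes 0.747%. H3 was therefore the class with the fewest counts, and no H3 gene exceeded 0.900 CPM per kb.

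Of the 61 members, 22 passed the filter on low counts and were tested, and 39 did not. Of the 22, 11 were over the cutoff of 0.671 CPM in all DMSO libraries and 4 were over it in none, namely Hist1h2be, Hist2h3c2, Hist1h4j and Hist1h4k. Hist1h4j passed only with the help of its combination libraries and of its PD173074 libraries. Hist1h4k passed only with the help of its PD173074 libraries. A count of calls over the 22 therefore leans towards members that were high after treatment, and the 39 others are given below as counts.

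**Figure D1:**
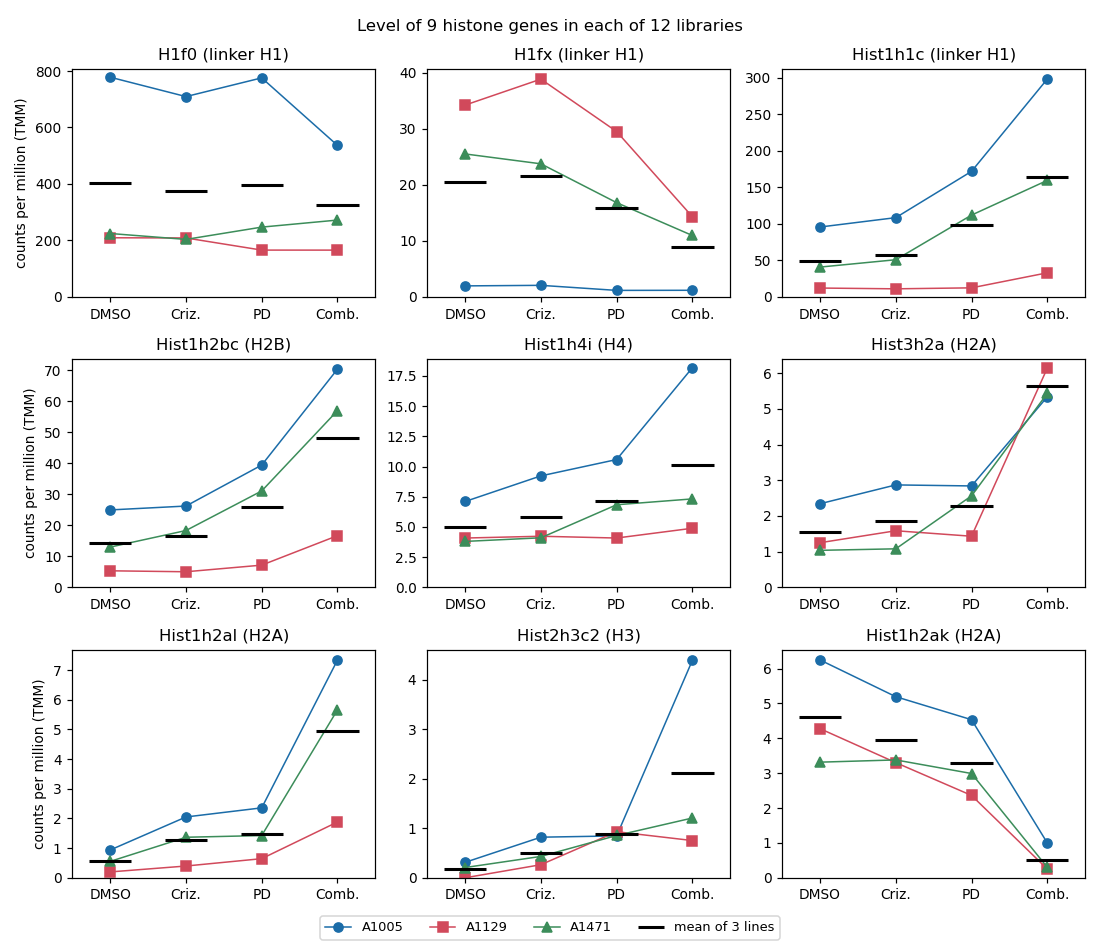
Level in CPM (y axis, from 0, scaled by TMM) of 9 histone genes under DMSO, Crizotinib (Criz.), PD173074 (PD) and both inhibitors (Comb.), with 1 point per library, lines joining the libraries of 1 cell line and a black bar for the mean of the 3 lines. H1fx is at 1.15 to 2.05 CPM in A1005, Hist3h2a is at 5.34 to 6.14 CPM with both inhibitors in every line, and Hist1h2ak drops to 0.251 to 1.0 CPM.

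Linker histone genes differed widely between the cell lines. H1fx (chr6:87980421-87981637, minus strand), which encodes the linker histone H1X, was at 1.58 ± 0.488 CPM in A1005, 29.2 ± 10.6 CPM in A1129 and 19.2 ± 6.68 CPM in A1471 (mean ± SD over the 4 treatments of a line). H1f0 was at 700.0 ± 114 CPM in A1005, 187 ± 25.1 CPM in A1129 and 237 ± 29.5 CPM in A1471. Hist1h1c was at 169 ± 92.7 CPM in A1005, 17.1 ± 10.6 CPM in A1129 and 90.8 ± 55.6 CPM in A1471. The A1005 line was thus highest for H1f0 and Hist1h1c and lowest for H1fx, and no A1005 library overlapped another line for H1f0 or H1fx. The edgeR quasi-likelihood test of both line coefficients together, with treatment in the fit, gave adjusted p-values of 4.32e-08 for H1fx, 2.30e-06 for H1f0 and 4.88e-07 for Hist1h1c. Over all members 15 of the 22 tested differed between lines, beside 73.9% of all genes tested, so the share was near the background. The oocyte linker gene H1foo held 4, 7, 0 and 3 counts in A1005 with DMSO, Crizotinib, PD173074 and both inhibitors, 1 count in A1471 with both inhibitors and 0 counts in every other library. Among core histone genes the H2B gene Hist1h2bc (chr13:23684199-23692908, plus strand) was at 40.3 ± 21.1 CPM in A1005, 8.54 ± 5.50 CPM in A1129 and 29.9 ± 19.6 CPM in A1471 (edgeR adjusted p = 8.85e-07). The 7 members without a call between lines were Hist1h2ae, Hist1h2bg, Hist1h3d, Hist1h4d, Hist1h4j, Hist1h4k and Hist3h2a.

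Both inhibitors together were compared with DMSO to ask what inhibiting Met and FGF receptors at once did to these genes. In the unpaired fit, 3 of the 22 tested members rose, beside 6.1% of all genes, and 1 fell, beside 8.28%. The H2A genes Hist1h2al and Hist3h2a and the H3 gene Hist2h3c2 were 8.75-fold, 3.64-fold and 11.9-fold higher, and the H2A gene Hist1h2ak was 8.71-fold lower. When the fit took the line as a block, 12 members rose, beside 28.6% of all genes, and 2 fell, beside 26.2%. Hist1h1c and Hist1h2bc, the most abundant members after H1f0, were among those that rose.

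**Figure D2:**
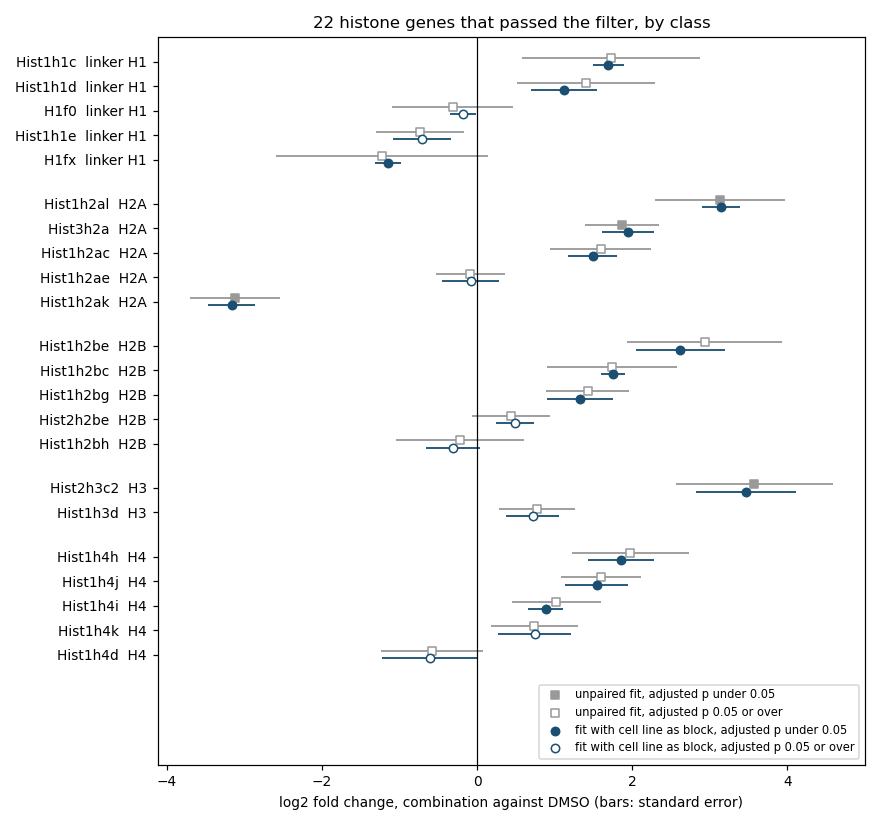
Log2 fold change of the 22 tested members with both inhibitors against DMSO (x axis, bars show the standard error), grouped by histone class, in the unpaired fit (grey squares) and in the fit with the cell line as block (blue circles); filled symbols have an adjusted p under 0.05. The blocked fit has narrower bars, 12 filled symbols lie right of 0 and 2, Hist1h2ak and H1fx, left of it. Over all genes 28.6% were called higher and 26.2% lower in that fit.

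The counts behind these calls were small, and their share was set against all genes. The 4 calls of the unpaired fit were 18.2% of the 22 tested members, beside 14.4% of 13836 genes tested (edgeR, adjusted p under 0.05); the 3 higher were 13.6% beside 6.1% and the 1 lower 4.55% beside 8.28%. At an unadjusted p under 0.05 there were 9 of the 22 (40.9%), beside 28.9% of all genes. With the block the 14 calls were 63.6% of the members, beside 54.8% of all genes, which is near the background. By direction, the 12 members that rose were 54.5% of those tested, beside 28.6% of all genes, and the 2 that fell were 9.09%, beside 26.2%. The median log2 change of the 22 members was 1.21 in the unpaired fit and 1.0 with the block, against 0.02 and 0.03 over all genes. The block was added because libraries of the same line deviate together. Of the 22 members, 7 had combination libraries all above the DMSO libraries, beside 13.8% of all genes, and 1 had them all below, beside 16.1%. Within lines, 14 were higher in all 3, beside 34%, and 2 lower in all 3, beside 31.9%. Hist1h4j, which passed the filter only with its combination libraries, is among the 9, the 12, the 7 and the 14, and adds no support to these counts. Without A1129 or without A1471 the unpaired fit called no member, and without A1005 it called 2, Hist1h2ak and Hist3h2a. Of the 14 calls with the block, 9 held in all 7 settings with a block, and Hist1h1d, Hist1h2be, Hist1h2bg, Hist1h4i and Hist1h4j were lost in at least 1 of them.

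Hist3h2a (chr11:58954685-58956830, plus strand), the only member of the Hist3 cluster, held 30, 19 and 15 counts with DMSO in A1005, A1129 and A1471, and 96, 98 and 72 counts with both inhibitors. The 3 combination libraries lay at 5.34, 6.14 and 5.43 CPM, above every other library. The log2 change was 1.87 ± 0.48 (SE; edgeR adjusted p = 0.0292) in the unpaired fit and 1.94 ± 0.33 (adjusted p = 0.000810) with the block. It shares 708 exon bases on the same strand with Trim17, which held 23 counts over all libraries, and 138 bases with an antisense gene.

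Hist1h2ak (chr13:21753435-21753827, minus strand), an H2A gene annotated as its coding sequence alone, went the other way. It held 80, 65 and 48 counts with DMSO in A1005, A1129 and A1471, and 18, 4 and 4 counts with both inhibitors. The levels fell from 3.32 to 6.25 CPM with DMSO to 0.251 to 1.0 CPM, with no overlap. The log2 change was -3.12 ± 0.58 (SE; edgeR adjusted p = 0.00722) in the unpaired fit and -3.16 ± 0.30 (adjusted p = 2.66e-05) with the block. Of the 50-base words of its exon, 52.3% also occur in other genes, so reads could be split between copies. Its head-to-head neighbour Hist1h2bn held 7 counts with DMSO and 7 with both inhibitors over the 3 lines, too few for a test.

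Hist1h2al, at chr13:51202727-51203065 on the minus strand, is annotated as a processed pseudogene of H2A outside the cluster. It held 12, 3 and 8 counts with DMSO in A1005, A1129 and A1471, and 132, 30 and 75 counts with both inhibitors. Within each line the combination library was the highest of the 4. The log2 change was 3.13 ± 0.84 (SE; edgeR adjusted p = 0.0349) and 3.15 ± 0.25 with the block (adjusted p = 8.22e-06), and 67.6% of its 50-base words occur elsewhere.

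Hist2h3c2 (chr3:96238108-96239127, minus strand), an H3 gene of the Hist2 cluster, held 4, 0 and 3 counts with DMSO and 79, 12 and 16 counts with both inhibitors in A1005, A1129 and A1471. The groups did not overlap, but the PD173074 libraries with 14, 13 and 12 counts reached the level of the lower combination libraries. The log2 change was 3.57 ± 1.01 (SE; edgeR adjusted p = 0.0422) and 3.47 ± 0.64 with the block (adjusted p = 0.00127). The near-identical copy Hist2h3c1 is listed with 0 counts, and 63.5% of the 50-base words of Hist2h3c2 occur in other genes. Its neighbour Hist2h2aa2, an H2A gene that was not tested, held 0 counts with DMSO and with Crizotinib, 4 with PD173074 and 23 with both inhibitors, which is at least 6.90-fold higher than DMSO against a floor of 3 counts over the group. Of the 23, 18 came from A1005. Of the 50-base words of Hist2h2aa2, 100% occur in other genes, and the similarly named Hist2h2aa1 is listed with 0 counts. All 528 exon bases of Hist2h2aa2 are shared with the antisense gene Gm20632, which held 212 counts. In A1005, A1129 and A1471 Gm20632 held 6, 10 and 8 counts with DMSO and 51, 39 and 25 with both inhibitors. Strand and the counting of shared reads are not given, so whether the rise belongs to Hist2h2aa2 was not tested.

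Linker histone genes moved in opposite directions. Hist1h1c was at 95.6, 12 and 40.7 CPM with DMSO in A1005, A1129 and A1471 and at 298, 32.9 and 159 CPM with both inhibitors. It was higher in 3 of 3 lines, but the groups overlapped because A1129 stayed below the DMSO level of the other lines. The unpaired log2 change was 1.73 ± 1.15 (SE; edgeR adjusted p = 0.366), and with the block it was 1.69 ± 0.20 (adjusted p = 9.06e-05). H1fx was at 1.95, 34.2 and 25.5 CPM with DMSO and at 1.17, 14.3 and 10.9 CPM with both inhibitors. Its unpaired log2 change was -1.22 ± 1.36 (edgeR adjusted p = 0.618), and with the block it fell by 1.15 on the log2 scale (SE 0.17, adjusted p = 0.000353).

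H1f0 was at 778, 209 and 224 CPM with DMSO and at 537, 166 and 272 CPM with both inhibitors in A1005, A1129 and A1471. A1005 and A1129 were lower and A1471 higher, and neither fit called it (log2 change -0.31 ± 0.78 and, with the block, -0.19 ± 0.17, edgeR adjusted p = 0.847 and 0.368). Hist1h1d, which encodes H1.3, held 39, 18 and 18 counts with DMSO, 43, 18 and 27 with Crizotinib, 86, 13 and 48 with PD173074 and 182, 12 and 48 counts with both inhibitors. The A1129 library did not follow the others, and Hist1h1d passed only with the block (log2 change 1.12 ± 0.42, edgeR adjusted p = 0.0457), a call that was lost without A1005, without A1471 and in DESeq2 with the block. Hist1h1e, which encodes H1.4, held 24, 39 and 66 counts with DMSO, 19, 19 and 51 with Crizotinib, 33, 40 and 34 with PD173074 and 34, 14 and 35 counts with both inhibitors (edgeR adjusted p = 0.129 with the block). It shares 496 exon bases on the same strand with Hist1h2be. The untested Hist1h1b, which encodes H1.5, held 7, 9 and 8 counts with DMSO and 11, 2 and 6 with both inhibitors, and Hist1h1a, which encodes H1.1, held 3, 4 and 1 counts with DMSO and 3, 4 and 1 with both inhibitors. Summed over the 8 linker genes the level was 480 ± 349 CPM (SD, n = 3) with DMSO and 504 ± 321 CPM with both inhibitors, since H1f0 outweighs the others.

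H2B genes gave the largest rise of a class sum. Summed over 14 genes they were at 30.4, 12 and 18.9 CPM with DMSO in A1005, A1129 and A1471 and at 82.1, 24.0 and 75.0 CPM with both inhibitors, a ratio of 2.70, 2.01 and 3.98. Hist1h2bc made up most of this, with 25.0, 5.33 and 13 CPM under DMSO and 70.4, 16.7 and 57.0 CPM under both inhibitors. Like Hist1h2be, Hist1h2bc is annotated with a transcript of 2 exons, and unlike Hist1h2be it had no match to the stem-loop letters. Which form of Hist1h2bc mRNA was counted was not tested. The unpaired log2 change of Hist1h2bc was 1.74 ± 0.84 (SE, edgeR adjusted p = 0.205), and 1.76 ± 0.16 with the block (adjusted p = 1.62e-05). Hist1h2be held 6, 10 and 9 counts with DMSO and 71, 15 and 115 counts with both inhibitors (log2 change 2.62 ± 0.58 with the block, edgeR adjusted p = 0.00337, 0.0801 without), and A1129 changed least. Hist1h2bg held 10, 24 and 12 counts with DMSO and 50, 32 and 51 counts with both inhibitors, without overlap, and passed with the block only (1.33 ± 0.43, edgeR adjusted p = 0.0228; 0.108 without), while Hist1h2bh and Hist2h2be passed in neither fit.

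Other H2A and H4 members rose with the block, with A1129 often changing least. Hist1h2ac (chr13:23681467-23683948, minus strand), which shares its promoter stretch with Hist1h2bc, held 12, 9 and 18 counts with DMSO and 61, 14 and 55 counts with both inhibitors. Its log2 change was 1.49 ± 0.31 with the block (SE; edgeR adjusted p = 0.00260) and 1.59 ± 0.65 without (adjusted p = 0.137). The divergent pair Hist1h2ae and Hist1h2bg did not move alike, with log2 changes of -0.08 ± 0.36 and 1.33 ± 0.43, of which only that of Hist1h2bg passed (edgeR with the block, adjusted p = 0.861 and 0.0228); the difference between them was not tested. The H4 gene Hist1h4i was at 7.10, 4.08 and 3.80 CPM with DMSO and 18.2, 4.89 and 7.32 CPM with both inhibitors (log2 change 0.89 ± 0.23 with the block, edgeR adjusted p = 0.00764, lost without A1005). Hist1h4h held 4, 6 and 18 counts with DMSO and 24, 15 and 73 with both inhibitors (log2 change 1.85 ± 0.43 with the block, edgeR adjusted p = 0.00429, 0.114 without). Hist1h4j held 4, 5 and 3 counts with DMSO and 14, 9 and 17 with both inhibitors (1.54 ± 0.41 with the block, edgeR adjusted p = 0.00956, 0.0671 without). Both were higher in 3 of 3 lines, and only for Hist1h4j did the groups not overlap. Because Hist1h4j passed the filter only with its combination libraries, its direction and lack of overlap add no support. Hist1h4k held 3, 3 and 9 counts with DMSO, 5, 5 and 7 with Crizotinib, 14, 13 and 12 with PD173074 and 5, 12 and 10 with both inhibitors, highest with PD173074 in every line. Because Hist1h4k reached the filter only with the help of its PD173074 libraries, its high level there adds no support. Hist1h4d and Hist1h4k passed in neither fit. H3 genes summed to 3.28, 4.01 and 4.35 CPM with DMSO and 7.5, 3.01 and 3.92 CPM with both inhibitors, so their sum rose in A1005 alone. There Hist2h3c2 held 79 of the 135 counts with both inhibitors and 4 of the 42 with DMSO, so this rise was mostly that of 1 gene.

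The members under the filter were summed. The 39 genes together held 100, 160 and 144 counts with DMSO in A1005, A1129 and A1471 and 151, 79 and 117 counts with both inhibitors, or 9.43 ± 1.43 CPM and 7.39 ± 2.12 CPM (SD, n = 3). The sum was lower in A1129 and A1471 and higher in A1005, and the groups overlapped. Over the 3 lines, 31 of the 39 had a ratio of both inhibitors to DMSO below 1 and 8 above 1. A member raised by treatment could pass the filter and leave this set, so the tally leans below 1 through the filter. The share among all genes under the filter is not given here, so the tally is not read as a result about the members. Of the 31, 24 held fewer counts with both inhibitors, and 7 held equal counts, whose ratio of 0.900 comes from the scaling by library size. For most of them the 95% exact binomial interval held 1, and it covers counting error only. It lay below 1 for the H3 genes Hist1h3g (9 counts against 27), Hist1h3c (9 against 24) and Hist1h3f (9 against 20) and the H2A gene Hist1h2af (5 against 17). It lay above 1 for Hist2h2aa2 and for the H2B gene Hist1h2bp (12 against 2, a ratio of 5.40 with an interval of 1.2 to 49.7). These are 39 intervals without adjustment, and a share of such intervals excludes 1 through counting error.

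**Figure D3:**
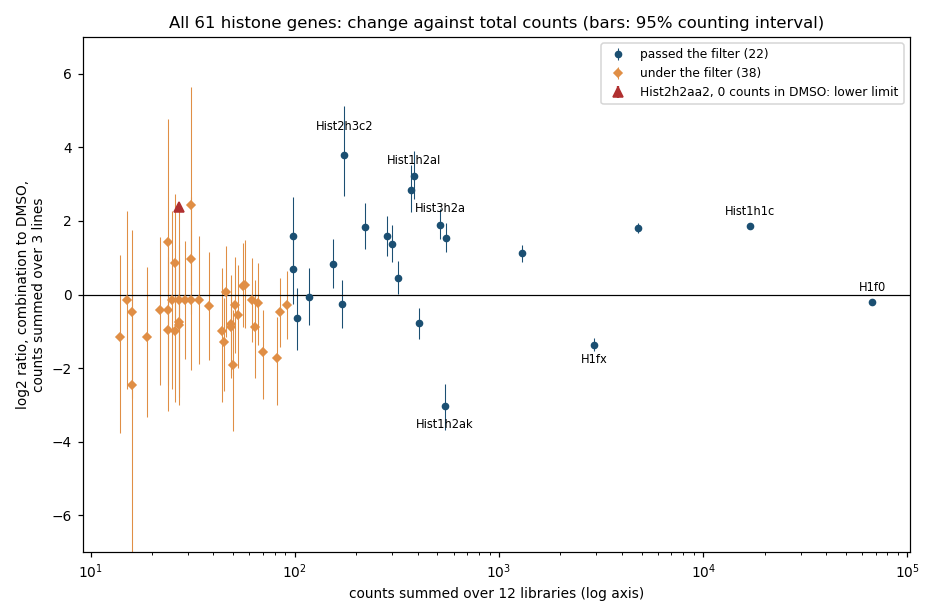
Log2 ratio of counts with both inhibitors to DMSO, summed over 3 lines and scaled by library size (y axis), against the counts of each gene over 12 libraries (x axis, log scale), for the 61 members; blue circles passed the filter, orange diamonds did not, bars are 95% counting intervals and the red triangle is the lower interval limit of Hist2h2aa2. Of the 39 genes under the filter, 31 have a ratio below 1, 7 of them through library size alone, while most of the 22 tested genes lie above 0 and Hist1h2ak lies furthest below it. The filter itself leans towards this split, because genes raised by treatment pass it more easily.

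The members were also summed by the length annotated behind the stem-loop. Summed over the 13 members with at least 100 bases behind the stem-loop, the level was 109, 22.9 and 54.1 CPM with DMSO and 334, 47.7 and 192 CPM with both inhibitors, a ratio of 3.08, 2.08 and 3.55 in A1005, A1129 and A1471. Hist1h1c held 17054 of the 20203 counts of this sum, and without it the ratios were 2.77, 1.36 and 2.46. Of the 11 tested among the 13, 7 rose and none fell with the block, beside 28.6% and 26.2% of all genes and 12 and 2 of the 22 tested members. The 15 members with a shorter stretch, shown above by Hist1h3c and Hist2h2aa2, summed to 1.95, 2.70 and 3.52 CPM with DMSO and 3.67, 1.32 and 3.47 CPM, a ratio of 1.88, 0.488 and 0.985. The 33 members without a match had ratios of 0.778, 0.790 and 1.32, and H1f0 held 67293 of their 79007 counts. Of the 11 tested among the 33, 5 rose, Hist1h4j among them, and 2 fell with the block. The length of the annotated transcript and the level cannot be told apart here, because no member with a shorter stretch passed the filter.

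Each inhibitor was compared with DMSO to ask what it did alone. With Crizotinib no member was called in either fit (edgeR), beside 0% of all genes, and none by DESeq2 or limma-voom. At an unadjusted p under 0.05 there were 0 of 22 members without the block, beside 0.13% of all genes, and 1, Hist1h2al, with it, beside 1.86%. With PD173074 no member was called without the block by edgeR, DESeq2 or limma-voom. At an unadjusted p under 0.05 (edgeR) there were 3 of 22, Hist1h4j, Hist1h4k and Hist2h3c2, beside 2.22% of all genes. Hist1h4j and Hist1h4k passed the filter only with the help of their PD173074 libraries and add no support to this count. With the block 2 members rose, beside 2.14% of all genes called and 1.62% called higher. Hist1h2al held 39, 9 and 20 counts with PD173074 against 12, 3 and 8 with DMSO (log2 change 1.41 ± 0.27, SE, edgeR adjusted p = 0.0291), and Hist1h2bc was at 39.5, 7.16 and 31.1 CPM against 25.0, 5.33 and 13 (0.80 ± 0.16, adjusted p = 0.0297). Both calls were lost without any 1 of the lines; the block then called 0 members without A1005 or without A1471 and 1, Hist1h1c, without A1129. The combination was compared with the same DMSO libraries, so the comparisons are not independent. Hist1h1c was at 172, 12.3 and 112 CPM with PD173074, so it was near its DMSO level in A1129 and above it in the other lines (log2 change 0.84 ± 0.20 with the block, edgeR adjusted p = 0.0619). In all, 10 of 22 members were higher in 3 of 3 lines with PD173074, beside 24.1% of all genes, and 3 lower, beside 23.2%. Hist1h4j and Hist1h4k are among the 10 and, through the filter, add no support to that count. With Crizotinib 4 were higher, beside 17.9%, and 4 lower, beside 17.7%, both near the background.

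**Figure D4:**
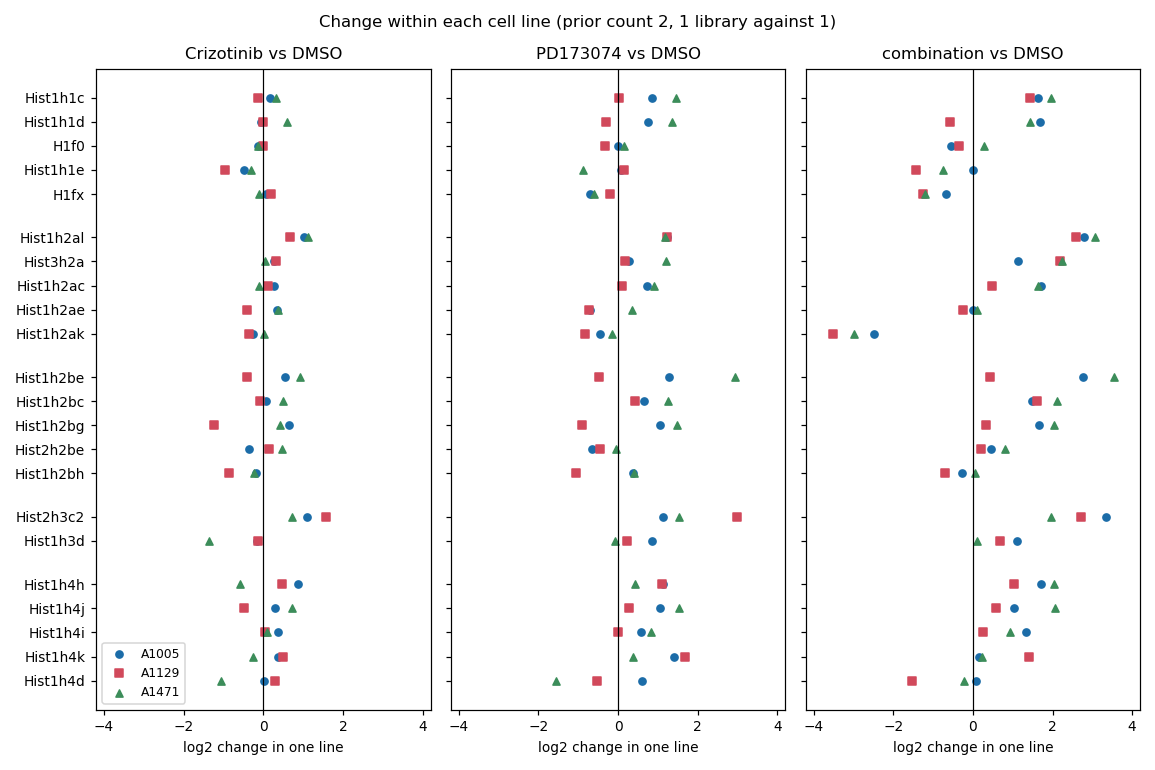
Log2 change of the 22 tested members within each cell line (x axis, 1 library against 1, prior count 2) for Crizotinib, PD173074 and both inhibitors against DMSO; blue circles are A1005, red squares A1129 and green triangles A1471. With Crizotinib 4 members are right of 0 in all 3 lines, and with PD173074 10. With both inhibitors 14 members are right of 0 and 2 left of 0 in all 3 lines. Hist1h4j and Hist1h4k, among the 10, passed the filter only with the help of their PD173074 libraries. Hist1h4j, also among the 14, needed its combination libraries too.

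The combination was then compared with each inhibitor. Against Crizotinib the unpaired fit called 1 member, Hist1h2ak, beside 13.2% of all genes called and 7.78% called lower. The block called 14, beside 53.4%, of which 12 were higher, beside 27.4%, and Hist1h2ak and H1fx lower, beside 26% of all genes. Hist1h4j, which passed the filter only with its combination libraries, is among the 12. Without A1471 the block called 7, and without A1005 it called 10. Against PD173074 the unpaired fit called 1 member, again Hist1h2ak, beside 4.77% of all genes called and 3.93% called lower. The block called 7, beside 39.8%, of which 5 were higher, beside 19.6%, and 2 lower, beside 20.2% of all genes. Without A1129 the block called 4. Those higher than with PD173074 were Hist1h1c (log2 change 0.85 ± 0.19), Hist1h2al (1.74 ± 0.22), Hist1h2bc (0.96 ± 0.15), Hist2h2be (0.94 ± 0.26) and Hist3h2a (1.35 ± 0.32), and those lower were H1fx (-0.69 ± 0.17) and Hist1h2ak (-2.67 ± 0.31). Hist1h2ak held 75, 33 and 42 counts with PD173074 and 76, 50 and 47 with Crizotinib, and neither inhibitor alone was called against DMSO.

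The departure from additivity asks whether the log2 change of the combination differed from the sum of the changes with each inhibitor. In the unpaired fit it was called for no member (edgeR; 1 by DESeq2 and 0 by limma-voom), beside 0.918% of all genes, and at an unadjusted p under 0.05 for 1 of 22, beside 9.03%. With the block it was called for 2 members, beside 16.2% of all genes, 1 above the sum, beside 5.46%, and 1 below it, beside 10.7%. Hist1h2ak was -2.46 ± 0.39 below the sum (SE; edgeR adjusted p = 0.00336), with -1.78, -2.34 and -2.87 in A1005, A1129 and A1471, and Hist1h2bc was 0.79 ± 0.22 above it (adjusted p = 0.0347). The call of Hist1h2bc was lost without any 1 of the lines, and that of Hist1h2ak without A1471.

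Genes of the pathway were read beside the members. With both inhibitors 8.28% of all genes tested fell and 6.1% rose in the unpaired fit, and 26.2% fell and 28.6% rose with the block. The counts of each list below stand beside these shares. Of 20 S phase genes, all tested, 17 fell and none rose with both inhibitors in the unpaired fit, and all 20 fell with the block. The largest changes were in thymidine kinase Tk1 (log2 change -3.86 ± 0.49, SE), ribonucleotide reductase Rrm2 (-3.12 ± 0.31), the licensing factor Cdc6 (-2.58 ± 0.19) and cyclin Ccna2 (-2.45 ± 0.55). Of 13 genes for transcription and 3′ end processing of histone mRNA, 2 fell, the cleavage factor Cstf2 (-1.2 ± 0.28) and the U7 snRNP protein Lsm11 (-1.10 ± 0.17), and with the block 8 fell and 1, Lsm10, rose. Slbp was at 76.6, 124 and 107 CPM with DMSO and 43.7, 70.9 and 43.8 CPM with both inhibitors (-0.95 ± 0.30, edgeR adjusted p = 0.0588, and 0.000191 once the line was a block), while the coactivator Npat passed in neither fit (adjusted p = 0.406 with the block). Of 12 histone chaperones 5 fell, among them Asf1b (-2.19 ± 0.29), the centromere chaperone Hjurp (-1.74 ± 0.12), the CAF-1 subunit Chaf1a (-1.68 ± 0.16) and the H1 and H3-H4 chaperone Nasp (-1.65 ± 0.15), and 9 fell with the block. With either inhibitor alone none of the S phase, processing, chaperone or replacement histone genes was called in either fit. Of all genes 0% were called, or 2.14% for PD173074 with the block.

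Replacement histones, whose making is not limited to S phase, went both ways. Of 8 tested of 9, the unpaired fit called 3. The centromeric H3 gene Cenpa (log2 change -2.35 ± 0.39, SE) and the H2A.Z gene H2afz (-1.11 ± 0.24) fell, and the H3.3 gene H3f3a rose (0.83 ± 0.14, edgeR adjusted p = 0.00384). Over all genes 8.28% fell and 6.1% rose in that fit. With the block 4 fell, beside 26.2% of all genes, and 1 rose, beside 28.6%. H3f3a was at 161, 166 and 161 CPM with DMSO and 284, 259 and 329 CPM with both inhibitors, without overlap.

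**Figure D5:**
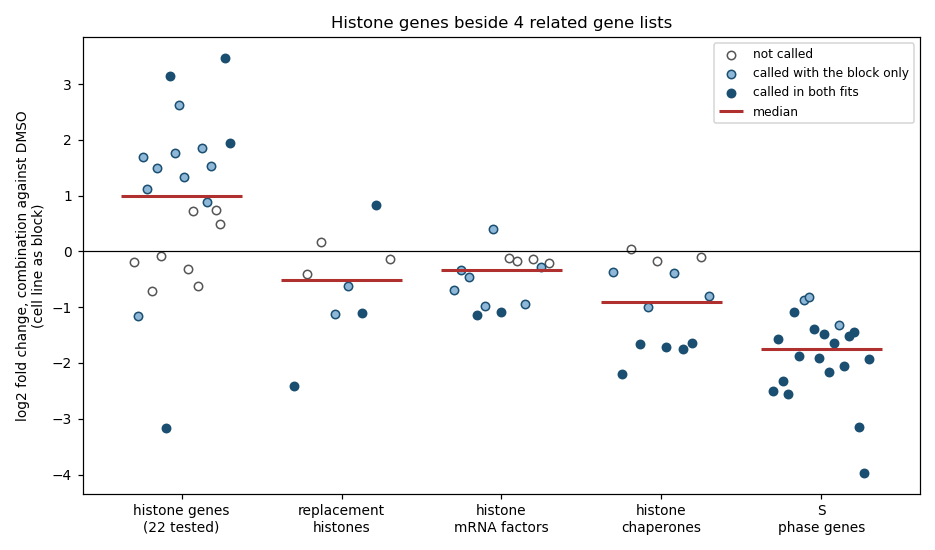
Log2 fold change with both inhibitors against DMSO in the fit with the cell line as block (y axis) of the 22 tested histone members beside replacement histones (8), histone mRNA factors (13), histone chaperones (12) and S phase genes (20), with 1 point per gene, filled by call and a red bar for the median. The median of the histone members is 1.0, and every S phase gene lies below 0.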

How the data were processed

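Total RNA of 12 tumoursphere libraries was sequenced on a NextSeq500. The deposited values are raw read counts per gene, which the authors made, per the labels, with bcl2fastq, STAR and HTSeq on mm10; tool versions, annotation release, RNA selection and strand are not given in the sources used here. Groups followed the labelled treatment and line. Members and gene lists were chosen with earlier results of these data known.

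Low genes were removed by filterByExpr at a count of 10 and a total of 15, which kept 13836 of 55573 genes. Counts were scaled by TMM and tested with edgeR 4.0.16 (quasi-likelihood, R 4.3.3) over all 12 libraries without a block, as the study compared them, with Benjamini-Hochberg adjustment over all genes and a threshold of 0.05. CPM values use TMM-scaled library sizes, log2 changes within a line use a prior count of 2, and tests were two-sided. A fit with the cell line as replicate block was the alternative. The pairing comes from the shared cell line, and deviations from the treatment means correlated at 0.766 or more in all 18 same-line pairs (mean 0.871; -0.422 over 36 pairs of different lines). DESeq2 1.42.0, limma 3.58.1 (voom), other scalings and filters, and leaving out each line were also run. No 2 libraries agreed within sampling noise (lowest chi-square per degree of freedom 4.54 over 66 pairs). Replicates are 1 culture per line. Counting intervals are 95% and exact, and intervals and the floor of 3 counts cover counting error only. Scripts were tested on simulated counts. Annotation was GENCODE M21, which held all 61 members, and RefSeq promoters matched 54.

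Any member may be named. By rule, linker genes, up to 20 members called in either fit that moved 1 way in all lines and the 10 highest per kilobase were described by library, for several of them with the libraries of the comparison alone, and up to 4 called genes with the largest change stand for each context list; Slbp and Npat were added for their role. Low-count members with intervals that exclude 1 and Hist1h2bn were named after their values were seen.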

Additional observations from a re-analysis of the deposited data

Results flagged for a closer look

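H1f0, the most abundant member, moved in opposite directions between the lines with both inhibitors. Its ratio of CPM to DMSO was 1.212 in A1471 (95% counting interval 1.16 to 1.27), against 0.6896 in A1005 (0.670 to 0.709) and 0.791 in A1129 (0.751 to 0.833). With 1 library per line and treatment the difference between lines was not tested, and the intervals cover counting error only.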

How the results depend on the processing

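With the cell line as replicate block, the number of members called went from 0 to 2 for PD173074 against DMSO, from 3 to 12 higher and from 1 to 2 lower for the combination against DMSO, from 1 to 14 against Crizotinib, from 1 to 7 against PD173074 and from 0 to 2 for the departure from additivity; the block changed no call for Crizotinib. The block with DESeq2 size factors or with total counts alone gave 2, 12, 2, 14, 8 and 2 in the same order, and DESeq2 with the block gave 3, 10, 2, 13, 7 and 3. The plain block fit was planned; the block fits with another scaling, with DESeq2 or without a line were chosen after seeing the data.

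Without the block, the combination against DMSO gave 1 member higher by limma-voom, 0 with no filter, 1 higher and 0 lower with at least 10 counts in every library, and 0 in both directions when only the groups compared were fitted. Against Crizotinib, DESeq2 gave 3, limma-voom, DESeq2 size factors and total counts alone gave 2 each, and only the groups compared gave 0. Against PD173074, DESeq2 gave 2, and no filter, at least 10 counts in every library and only the groups compared gave 0 each. The departure was called for 1 member by DESeq2. Differences between lines fell from 15 to 8 members with at least 10 counts in every library, where fewer members were tested. Elsewhere the cause was not tested.

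Leaving out each line without the block gave 0 to 1 members higher and 0 to 1 lower against DMSO, 0 to 2 against Crizotinib and 0 to 1 against PD173074. Leaving out each line with the block gave 0 to 1 for PD173074 against DMSO, 8 to 12 higher (9 without A1005, 8 without A1471) and 2 lower for the combination, 7 to 14 against Crizotinib, 4 to 6 against PD173074 (5 without A1471) and 0 to 2 for the departure. Of 2128 values for single members, 1892 kept their direction and side of the threshold, 210 passed it newly, 26 lost it and 0 called values changed sign. Low counts limit the 39 untested members.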
